A study of Mus musculus with 32 samples.

Results

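The 9 genes described here are *Apoc3*, *Apoe*, *Apob*, *Apom*, *Mttp*, *Abca1*, *Lpl*, *Cd36* and *Scarb1*, the apolipoproteins and lipid uptake and export genes of the renal cortex. They were taken by symbol from a table of counts for 32544 genes. Bulk RNA-Seq was performed on kidney cortex of 32 mice at 25 weeks of age, with 1 library per mouse. All mice carried the Col4a3tm1Dec allele on the C57BL/6J background, a constitutive disruption of the *Col4a3* collagen gene. Alport mice were Col4a3-/-, and the control mice were heterozygous (Col4a3+/-), so no group lacked the allele. Mice received vehicle or nicotinamide riboside (NR), a precursor of NAD+ given in the diet, and each of the 8 combinations of sex, genotype and treatment held 4 mice. The comparisons ask how loss of *Col4a3* changed these lipid genes in each sex, and what NR did in Alport and in control mice.

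Lipids travel between cells on lipoproteins, which apolipoproteins build and steer. APOB is the scaffold of triglyceride-rich particles, the microsomal transfer protein MTTP loads lipid onto it, APOC3 slows the clearance of those particles, APOE is a ligand for lipoprotein receptors, and APOM carries sphingosine-1-phosphate in HDL. ABCA1 exports cholesterol and phospholipid from cells, SCARB1 (SR-B1) takes up cholesterol esters from HDL, lipoprotein lipase (LPL) releases fatty acids from triglycerides at the capillary wall, and CD36 takes up fatty acids and oxidised lipoproteins. The proximal tubule burns fatty acids as its main fuel and reabsorbs filtered lipoproteins and albumin, and lipid builds up in the diseased kidney.

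Gene positions are from GENCODE M21 on GRCm38, the assembly that the submitters' processing notes call mm10. The secreted proteins and their assembly factor lie at chr9:46232933-46235636, minus strand (*Apoc3*), chr7:19696109-19699188, minus strand (*Apoe*), chr12:7977648-8016835, plus strand (*Apob*), chr17:35128997-35132050, minus strand (*Apom*) and chr3:138089854-138144968, minus strand (*Mttp*). The exporter and the uptake genes lie at chr4:53030787-53159895, minus strand (*Abca1*), chr8:68880491-68907448, plus strand (*Lpl*), chr5:17781690-17888801, minus strand (*Cd36*) and chr5:125277087-125341094, minus strand (*Scarb1*). No exon of the other 8 genes overlaps another annotated gene, but the exons of *Mttp* overlap *Trmt10a* and the antisense RNA *Gm43691* on the opposite strand. Whether counting used the strand is not given in the sources used here, so reads of *Mttp* and of these partners cannot be told apart in the overlap.

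RefSeq promoters (GRCm38.p6, 250 bases before to 50 bases after the start, 5′ to 3′ on the strand of the gene) were available for 6 of the 9 genes, and those of *Apoc3*, *Lpl* and *Scarb1* were not available here. Shown are the promoters of *Mttp* (chr3:138143369-138143668, minus strand), the member called for NR in Alport mice of both sexes together, of *Abca1* (chr4:53159846-53160145, minus strand), which differed most by genotype in both sexes among the export and uptake genes, and of *Cd36* (chr5:17835847-17836146, minus strand), which differed most between control males and females. Capitals mark matches, on either strand, to the nuclear receptor half-site AGGTCA or to TATAAA.
Mttp: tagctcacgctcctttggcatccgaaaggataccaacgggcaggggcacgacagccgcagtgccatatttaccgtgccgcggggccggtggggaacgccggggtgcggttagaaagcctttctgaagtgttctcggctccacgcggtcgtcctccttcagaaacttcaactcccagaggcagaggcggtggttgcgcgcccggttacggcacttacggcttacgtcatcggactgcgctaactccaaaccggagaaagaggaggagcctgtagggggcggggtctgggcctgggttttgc
Abca1: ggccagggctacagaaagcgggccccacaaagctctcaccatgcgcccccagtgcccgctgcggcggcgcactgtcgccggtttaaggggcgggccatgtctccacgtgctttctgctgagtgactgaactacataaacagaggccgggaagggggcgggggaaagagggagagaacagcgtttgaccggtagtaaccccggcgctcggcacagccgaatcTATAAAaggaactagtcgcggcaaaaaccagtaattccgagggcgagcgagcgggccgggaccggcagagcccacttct
Cd36: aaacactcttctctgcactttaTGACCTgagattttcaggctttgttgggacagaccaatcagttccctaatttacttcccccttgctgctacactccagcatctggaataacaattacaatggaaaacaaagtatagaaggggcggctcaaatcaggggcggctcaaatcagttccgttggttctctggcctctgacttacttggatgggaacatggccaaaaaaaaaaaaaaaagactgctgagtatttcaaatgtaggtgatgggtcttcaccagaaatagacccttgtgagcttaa

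The half-site AGGTCA was found in *Cd36*, on the opposite strand and starting 228 bases before the start, and among all 32851 RefSeq promoters of this length 16.3% hold it. TATAAA was found in *Abca1*, 29 bases before the start, and 13.6% of all promoters hold it. TATAAA was also found in *Apob* and in 1 of 3 *Apoe* promoters, where matches on the opposite strands overlapped each other, and matches to AGGTCA and TATAAA overlapped in none of the members. Neither was found in the *Mttp* and *Apom* windows. A match describes the letters of the window only.

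Total counts were 16621944 to 27778797 per library, and all 9 genes passed the low-count filter in each of the 16 fits. Levels are given as CPM, counts per 1000000 counts of the library, with library sizes scaled by the trimmed mean of M values (TMM). The lowest was *Apoc3* (46 to 622 counts per mouse), and the precision of its values is limited by these counts, whereas *Apoe* had 4616 to 60403 counts. The 20 proximal tubule markers of a list were detected in every mouse, as were 4 of 11 adipocyte and 8 of 15 hepatocyte markers. Per mouse, the adipocyte markers summed to 24.1 to 57.6 CPM and the hepatocyte markers to 110 to 449 CPM. Adiponectin (*Adipoq*), a defining adipocyte gene named after its values were seen, was at 0 in 26 of 32 mice and at most 0.568 CPM, while *Alb* of hepatocytes was 1.37 to 24.4 CPM. *Col4a3* mRNA, counted over the whole gene rather than over the disrupted part, was 139.7 to 200.1 CPM in vehicle-treated controls and 49.0 to 83.7 CPM in Alport mice. In NR-treated controls it was 59.0 to 160.3 CPM in males and 104.8 to 123.4 CPM in females. By the test described below, *Col4a3* was lower with NR than with vehicle in control females (log2 fold change −0.38 ± 0.077, adjusted p = 0.0154). The lower value in control males did not pass (−0.91 ± 0.25, adjusted p = 0.0675). The libraries labelled NR-treated male control 1 and 3 held 59.0 and 74.9 CPM, within the Alport range, although their genotype labels are Col4a3+/-. In the ratio of *Col4a3* to *Col4a4* counts, chosen because *Col4a4* encodes the partner chain and after these values were seen, all 16 controls (0.537 to 0.822) lay above all 16 Alport mice (0.293 to 0.413). In Alport mice on NR, male 1 and female 4 stood apart from the other mice of their groups in several members and in macrophage markers (summed CPM 1710.3 and 178), and for the results below that they move most the value without 1 of them is given. NR-treated Alport male 3 had the lowest summed proximal tubule markers of all mice (7461 CPM).

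To set the genes side by side, levels were divided by the exon length annotated for each gene, such as 1014 bases for *Apoc3* and 10478 for *Lpl*. Gene counts do not show which transcripts were present, so the order of the genes depends on these lengths. Per kilobase of exon, the levels in vehicle-treated control males were 143 ± 23.4 CPM per kb for *Cd36* (mean ± SD, n = 4), 129 ± 36.9 for *Apoe*, 77.1 ± 6.35 for *Apom* and 52.0 ± 11.8 for *Lpl*. *Apob* followed with 18.1 ± 4.79, and *Mttp* (6.08 ± 0.505), *Abca1* (4.42 ± 0.881), *Apoc3* (3.52 ± 1.42) and *Scarb1* (1.91 ± 0.112) were lower. The levels of *Cd36* and *Apoe* in males lay within each other's spread, and so did those of *Abca1* and *Apoc3*. In control females the order began with *Apoe* at 581 ± 133 CPM per kb, followed by *Apom* at 60.5 ± 5.30. *Apob* (25.9 ± 4.43), *Cd36* (21.4 ± 3.49) and *Lpl* (21.3 ± 4.57) were close together, above *Apoc3* (9.09 ± 2.36), *Mttp* (7.72 ± 1.05), *Abca1* (5.17 ± 1.08) and *Scarb1* (2.56 ± 0.208).

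**Figure D1:**
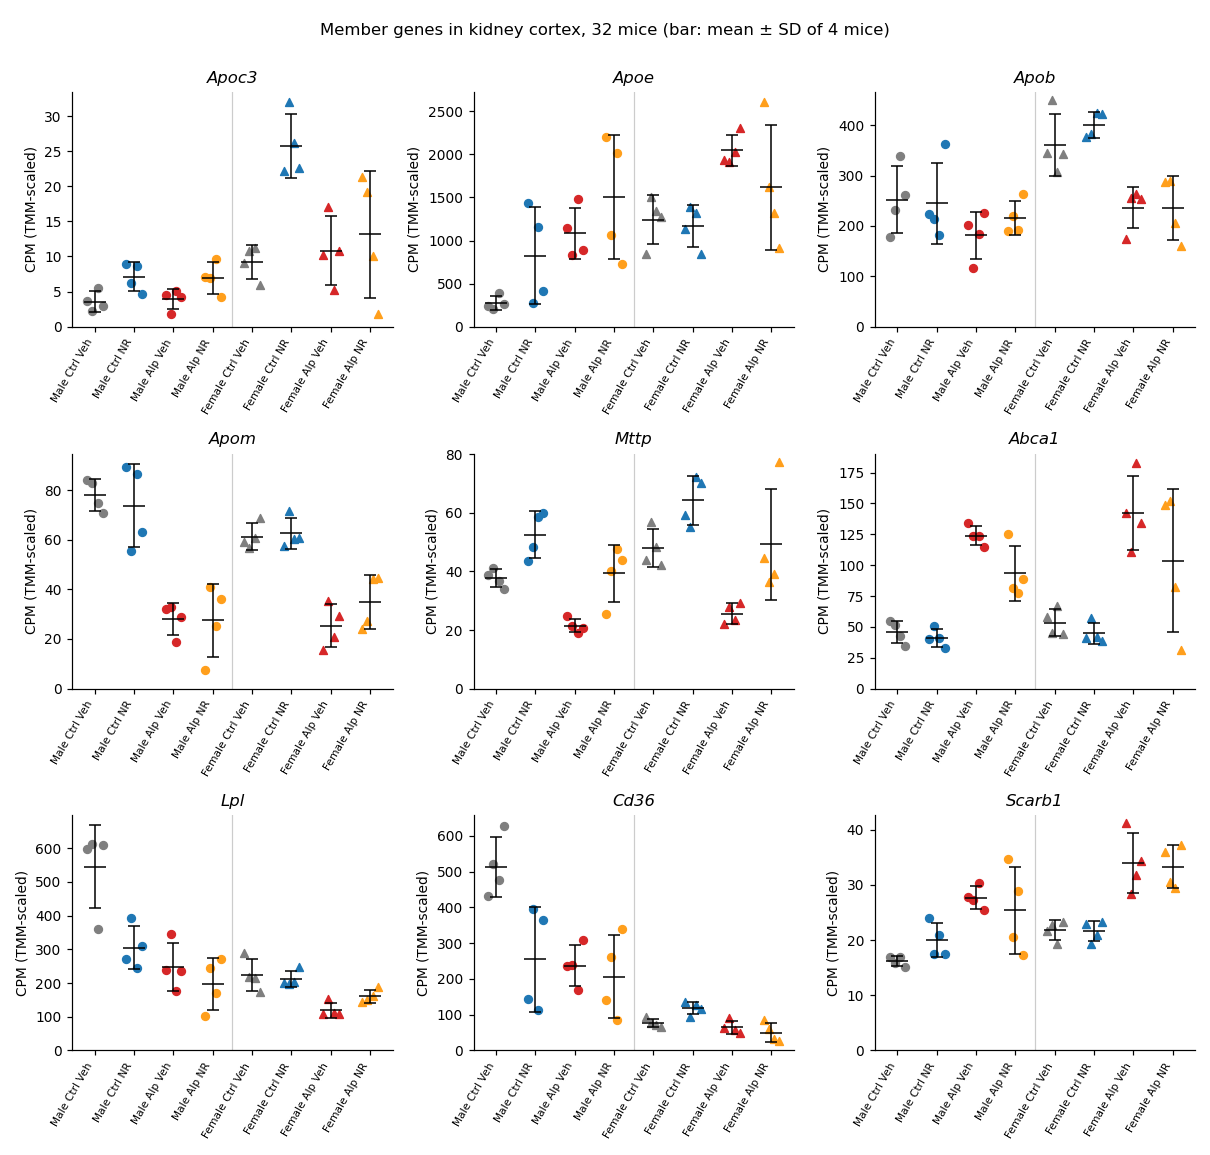
Each panel plots one gene in CPM (vertical axis, from 0) for 8 groups of 4 mice (circles, males; triangles, females; grey and blue, control; red and orange, Alport), with the mean and SD of each group. *Abca1* of every vehicle-treated Alport mouse lies above that of every control, *Cd36* is highest in vehicle-treated control males, and *Mttp* of every NR-treated Alport mouse lies above the vehicle-treated Alport mice of its sex.

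In vehicle-treated Alport mice, 7 of 9 members differed from control in males and 7 of 9 in females, 3 up and 4 down in each sex. *Apoe*, *Abca1* and *Scarb1* rose, and *Apom*, *Mttp* and *Lpl* fell, in both sexes, while *Cd36* passed the test in males and *Apob* in females. Differences between groups are log2 fold changes ± SE, called at a Benjamini-Hochberg adjusted p under 0.05 over all genes of the fit. Among all genes tested, 26.8% rose and 24.2% fell in males, and 24.0% rose and 21.8% fell in females, so calls were common in this comparison. The 4 Alport and 4 control mice of a sex did not overlap for the 7 called members, which also held for 50.3% of all genes in males and 44.3% in females. The median log2 fold change of the 9 members was −0.40 in males and −0.20 in females, against −0.0013 and −0.00083 over all genes.

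Of the secreted apolipoproteins, *Apoe* was at 245, 208, 389.6 and 264 CPM in control males and at 1139, 827, 1479 and 887 CPM in Alport males. Every Alport male was above every control male, and the log2 fold change was 2.05 ± 0.22, adjusted p = 1.62e-05, a 4.15-fold rise. In females *Apoe* was already at 844, 1509, 1343 and 1274 CPM in controls and reached 1936, 1913, 2027 and 2308 CPM in Alport mice, a smaller rise (0.76 ± 0.17, adjusted p = 0.00366) that kept the groups apart. With 1 fit of all 32 mice the female rise did not pass the test (0.72, adjusted p = 0.148). *Apom* went the other way, from 84.2, 82.8, 74.6 and 70.8 CPM in control males to 32.0, 32.8, 18.7 and 28.9 CPM in Alport males (−1.40 ± 0.15, adjusted p = 1.47e-05). In females it was 58.9, 56.5, 60.9 and 68.9 CPM in controls and 15.6, 35.3, 21.0 and 29.4 CPM in Alport mice (−1.24 ± 0.21, adjusted p = 0.000841), and both sexes ended at less than the lowest control. *Apob* was 179 to 338 CPM in control and 116 to 225 CPM in Alport males, groups that overlapped (−0.40 ± 0.21, adjusted p = 0.137; −0.23, adjusted p = 0.312 without Alport male 2 and −0.23, adjusted p = 0.38 without control male 3), and fell in females from 344, 449.9, 307 and 342 to 174, 256, 263 and 253 CPM (−0.57 ± 0.15, adjusted p = 0.0096). *Apoc3* was low in both genotypes, at 2.18 to 5.56 and 1.87 to 5.08 CPM in control and Alport males (0.22 ± 0.33, adjusted p = 0.606) and at 5.88 to 11.2 and 5.19 to 17.1 CPM in females, and the groups overlapped in both sexes.

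*Mttp*, the assembly factor of APOB particles, fell from 38.9, 41.3, 36.8 and 33.9 CPM in control males to 24.7, 21.5, 19.1 and 20.7 CPM in Alport males (−0.73 ± 0.093, adjusted p = 5.59e-05). The female values were 44.0, 56.9, 48.5 and 42.3 CPM and 22.0, 27.8, 23.3 and 29.3 CPM (−0.87 ± 0.12, adjusted p = 0.000255), again with no overlap. The exporter *Abca1* rose most among the genes of export and uptake. It was 54.4, 51.5, 43.0 and 34.2 CPM in control males and 134, 123, 124 and 115 CPM in Alport males, a 2.87-fold rise (1.52 ± 0.13, adjusted p = 2.24e-06). In females it was 58.3, 44.8, 67.1 and 43.9 CPM in controls and 142, 110.4, 183 and 134 CPM in Alport mice, a 2.72-fold rise (1.45 ± 0.17, adjusted p = 0.000134).

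The uptake genes split. *Lpl* fell from 598, 613, 359 and 608 CPM to 239, 346, 175 and 235 CPM in males (−1.05 ± 0.21, adjusted p = 0.00128), where control male 3 was only slightly above the highest Alport male. In females *Lpl* was 289, 217, 213 and 175 CPM in controls and 107, 151, 109.7 and 109 CPM in Alport mice (−0.87 ± 0.16, adjusted p = 0.00129). *Cd36* was 431, 521, 476 and 627 CPM in control males and 235, 239, 168 and 308 CPM in Alport males, a 2.05-fold fall (−1.03 ± 0.17, adjusted p = 0.000324). Female levels were far lower in both genotypes, 94.5, 76.7, 69.9 and 66.3 and 61.7, 91.7, 58.2 and 49.0 CPM, and overlapped (−0.20 ± 0.18, adjusted p = 0.39). Without Alport female 2, the highest of its group, *Cd36* was called in females as well (−0.42, adjusted p = 0.0148), and without Alport female 4 the value was −0.087, adjusted p = 0.72. The HDL receptor *Scarb1* rose instead, from 16.96, 15.9, 17.01 and 15.03 CPM to 27.7, 27.3, 30.4 and 25.4 CPM in males (0.85 ± 0.086, adjusted p = 9.51e-06) and from 21.7, 22.8, 19.3 and 23.3 CPM to 41.2, 28.4, 31.8 and 34.3 CPM in females (0.68 ± 0.11, adjusted p = 0.000639), with small spreads within groups.

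Cell type markers moved with these changes. In bulk tissue, fewer cells of a type and less RNA per cell cannot be told apart. Of 20 proximal tubule markers, 20 fell in males and 19 in females, with summed levels of 29852 to 33719 CPM in control and 11159 to 18749.8 CPM in Alport males and of 24478 to 31092 and 10866 to 18401 CPM in females. Of 20 macrophage markers, 20 rose in males and 19 in females, with sums of 111 to 132 CPM in control and 822 to 1148 CPM in Alport males and of 129 to 246 and 654 to 1188 CPM in females. Stromal markers rose for 13 of 14 genes in each sex, endothelial markers for 15 of 16 in males and 9 of 16 in females, and podocyte markers for 10 and 9 of 12, while of 16 loop and distal nephron markers 10 fell in each sex. Any of the members may be expressed by several of these cell types, and the part of these cell types in the changes of the members was not tested. Adipocyte markers (1 rose of 4 tested in males and of 5 in females, none fell) had 1 called gene, *Slc36a2*, an amino acid transporter (5.32 ± 0.57, adjusted p = 1.49e-05 in males), with *Adipoq* at or near 0. Hepatocyte markers (4 rose and 1 fell of 8 tested in males, 5 rose and 1 fell of 9 tested in females) diverged, with *Fgb*, a fibrinogen chain, rising in males (4.19 ± 0.23, adjusted p = 1.13e-07) and *Alb*, albumin, falling (−1.27 ± 0.17, adjusted p = 7e-05).

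**Figure D2:**
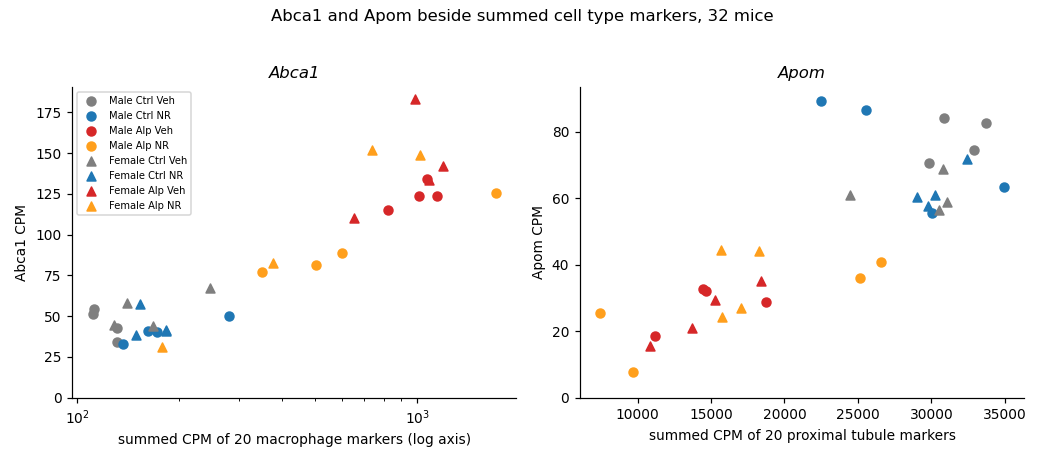
*Abca1* (left, CPM) is plotted against the summed CPM of 20 macrophage markers (log axis), and *Apom* (right, CPM) against the summed CPM of 20 proximal tubule markers, with 1 point per mouse (circles, males; triangles, females; grey and blue, control; red and orange, Alport). Alport mice with macrophage sums of 822 to 1148 CPM in vehicle-treated males sit at 115 to 134 CPM of *Abca1*, and NR-treated female Alport mouse 4, with a sum of 178, sits at the left with the controls and lowest of all mice on the *Abca1* axis, at 31.2 CPM.

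The other genes of lipoprotein transport were taken from lists. Among 17 other apolipoproteins, 3 rose and 2 fell of 10 tested in males and 4 rose and 1 fell of 11 tested in females. *Clu* (clusterin, or APOJ) rose in males (1.40 ± 0.11, adjusted p = 1.21e-06) and females (1.39 ± 0.18, adjusted p = 0.000187), as did *Apod* (1.92 ± 0.33, adjusted p = 0.00049 and 1.51 ± 0.30, adjusted p = 0.00226). *Apoo*, a protein of the mitochondrial inner membrane, fell in males (−0.74 ± 0.10, adjusted p = 9.78e-05) and females (−0.59 ± 0.12, adjusted p = 0.00255), and *Apoh* fell in males (−0.79 ± 0.19, adjusted p = 0.00404). In lipolysis and lipoprotein remodelling, 7 rose and 6 fell of 20 tested in males and 6 rose and 6 fell of 21 tested in females. *Pltp*, the phospholipid transfer protein, had the smallest p of those that rose, with 5.19 to 7.03 CPM in control and 36.1 to 52.0 CPM in Alport males (2.85 ± 0.14, adjusted p = 4.38e-08) and a female log2 fold change of 2.20 ± 0.18, adjusted p = 2.19e-05. *Lipa*, the lysosomal acid lipase, fell in males (−0.75 ± 0.084, adjusted p = 2.07e-05) and females (−0.89 ± 0.13, adjusted p = 0.000444), and *Sar1b*, which carries lipoproteins out of the endoplasmic reticulum, fell in males (−0.66 ± 0.10, adjusted p = 0.000245).

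Of the lipoprotein receptors, 11 rose and 7 fell of 27 tested in males and 8 rose and 9 fell of 27 tested in females. The scavenger receptors *Cxcl16* (2.04 ± 0.090, adjusted p = 2.12e-08 in males, 1.78 ± 0.14, adjusted p = 1.91e-05 in females) and *Cd68* (2.93 ± 0.17, adjusted p = 1.58e-07 and 2.72 ± 0.30, adjusted p = 9.47e-05) rose, and *Cd68* is also a macrophage gene. *Cubn* (cubilin), which takes up filtered protein and HDL in the proximal tubule, fell in both sexes (−1.18 ± 0.11, adjusted p = 5.85e-06 and −1.07 ± 0.14, adjusted p = 0.000181), and its partner *Lrp2* (megalin) fell in males (−1.14 ± 0.14, adjusted p = 3.79e-05). For cholesterol efflux and targets of the oxysterol receptor LXR, 9 rose and 1 fell of 16 tested in males and 4 rose and 1 fell of 16 tested in females, with *Abcg1*, the other main sterol exporter, at 2.03 ± 0.14, adjusted p = 4.63e-07 in males and 1.67 ± 0.16, adjusted p = 4.88e-05 in females. Of the genes of fatty acid transport and binding, 3 rose and 7 fell of 16 tested in males and 2 rose and 6 fell of 18 tested in females. *Slc27a2* (FATP2), a fatty acid transporter of the proximal tubule, fell in males (−1.17 ± 0.14, adjusted p = 2.71e-05), *Dgat2*, which makes triglycerides, fell in females (−1.13 ± 0.15, adjusted p = 0.000254), and the lipid droplet coat gene *Plin2* rose in both sexes (0.38 ± 0.088, adjusted p = 0.00328 and 0.32 ± 0.071, adjusted p = 0.00404). Among transcription factors of lipid genes, 3 rose and 9 fell of 18 tested in males and 2 rose and 9 fell of 18 tested in females, with *Ppara*, the receptor that drives fatty acid oxidation genes, lower in males (−0.94 ± 0.12, adjusted p = 5.32e-05) and females (−1.14 ± 0.13, adjusted p = 8.69e-05), and *Hnf4a* lower in females (−0.81 ± 0.11, adjusted p = 0.000267). The median log2 fold changes of these 6 lists ran from −0.38 for the transcription factors to 0.54 for the apolipoproteins in males, and from −0.43 to 0.90 for the same lists in females.

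**Figure D3:**
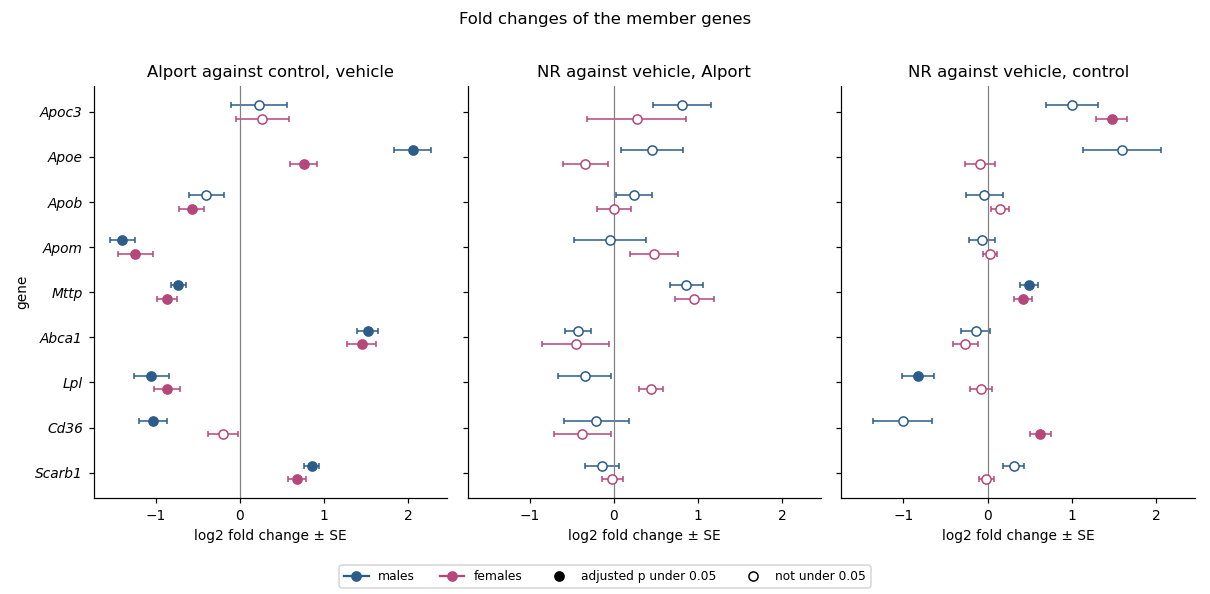
Log2 fold changes ± SE (horizontal axis) of the 9 genes (vertical axis) are plotted for males (blue) and females (pink) in 3 comparisons, with filled points for an adjusted p under 0.05. The Alport panel holds 7 filled points for each sex, the NR panel of Alport mice holds 0, and the NR panel of controls holds 2 for males and 3 for females.

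In Alport mice, *Mttp* was the 1 member of 9 called for NR, and only with both sexes together. *Mttp* was 24.7, 21.5, 19.1 and 20.7 CPM in vehicle-treated and 25.3, 40.2, 47.8 and 44.0 CPM in NR-treated Alport males. In females the values were 22.0, 27.8, 23.3 and 29.3 CPM and 44.5, 36.6, 39.0 and 77.4 CPM. All NR-treated mice were above all vehicle-treated mice of their sex, which held for 1 of 9 members in each sex and for 3.43% of all genes in males and 9.1% in females. Within 1 sex the change did not pass the test, with 0.86 ± 0.19, adjusted p = 0.558 in males and 0.96 ± 0.23, adjusted p = 0.12 in females. The quasi-likelihood test called no member in either sex, against 0.0% of all genes in males and 0.477% in females, and at an unadjusted p under 0.05 there were 3 members in males and 2 in females. Over all genes tested, 785 of 15500 in males and 2627 of 15712 in females had an unadjusted p under 0.05. In males, DESeq2 called 47 genes as higher and 21 as lower with NR. DESeq2 called *Mttp* among males (adjusted p = 0.0271) and among females (adjusted p = 0.0041), 1 fit of all 32 mice did so too, and limma-voom called no member. Over the 16 Alport mice of both sexes together, *Mttp* rose 1.90-fold (0.92 ± 0.16, adjusted p = 0.00724), and it was the only one of 9 members called, against 1.48% of all genes. Without male 1, which was the lowest NR-treated male, the value was 1.005, adjusted p = 0.000736, and without female 4, the highest, 0.77, adjusted p = 0.00718. Of the genes whose exons overlap it, *Trmt10a* was 5.85 to 9.43 CPM in the 32 mice and did not pass the test in this comparison (0.14 ± 0.096, adjusted p = 0.428).

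The remaining members spread widely in the NR-treated Alport groups. *Abca1* was 126, 81.5, 77.1 and 89.0 CPM in NR-treated Alport males, where 3 of 4 mice lay below the vehicle range and male 1 within it (−0.42 ± 0.16, adjusted p = 0.939). Without male 1 the fall passed the test (−0.60, adjusted p = 0.0333), as did the rise of *Mttp* (1.02, adjusted p = 0.0254). Without male 3 neither passed (−0.34, adjusted p = 0.992 for *Abca1* and 0.75, adjusted p = 0.876 for *Mttp*). In females *Abca1* was 148, 152, 82.6 and 31.2 CPM, 2 of them within the vehicle range of Alport females and female 4 below every control female (−0.45 ± 0.40, adjusted p = 0.578), and over both sexes its value was −0.43 ± 0.23, adjusted p = 0.311. Without female 4 the female value was −0.15, adjusted p = 0.747, and that of *Mttp* was 0.65, adjusted p = 0.0568. *Apoe* was 2204, 1059, 2018 and 729.9 CPM in NR-treated Alport males and 2607, 1621, 1325 and 911 CPM in females. These ranges enclosed all vehicle-treated Alport mice of the same sex. *Apom* was 7.64, 40.9, 25.4 and 35.9 CPM in males, with male 1 lowest of all 32 mice, and 24.2, 27.0, 44.2 and 44.4 CPM in females. *Apoc3* was 7.03, 6.95, 9.59 and 4.16 CPM in males (0.81 ± 0.34, adjusted p = 0.939) and 21.3, 19.2, 10.1 and 1.82 CPM in females, with female 4 lowest of all mice. *Lpl* was 102, 246, 169.6 and 272 CPM in males and 144, 149.6, 162 and 187 CPM in females, where only vehicle-treated female 2 overlapped the NR group (0.44 ± 0.14, adjusted p = 0.191). *Cd36* was 140.4, 260.3, 86.0 and 340.1 CPM in males and 84.4, 58.7, 30.7 and 27.1 CPM in females, *Scarb1* 17.4 to 34.7 and 29.5 to 37.1 CPM, and *Apob* 189 to 263 and 159 to 289.9 CPM, all overlapping the vehicle groups.

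Beside these values, macrophage marker sums in NR-treated Alport mice ran from 349 to 1710.3 CPM in males and 178 to 1023 CPM in females. Male 1, with *Abca1* and *Apoe* highest and *Apom* lowest of its group, had the highest sum (1710.3 CPM), and female 4, with *Abca1* and *Apoe* lowest, had the lowest (178 CPM). Male 3 had the lowest sum of the males (349 CPM) and their lowest *Abca1* (77.1 CPM), but its *Apoe* was 2018 CPM. Males 2 and 4, with sums of 505 and 604 CPM, had lower *Apoe* (1059 and 729.9 CPM). Proximal tubule sums were 9698 CPM in male 1 and 7461 CPM in male 3, below all vehicle-treated Alport mice. The part of these cells in the spread of the members was not tested. No marker list had a called gene in males, and in females 1 of 20 proximal tubule markers, *Slc22a12* (1.34 ± 0.19, adjusted p = 0.0147), was called.

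Other lipid genes were called in NR-treated Alport females. *Lpcat3*, an enzyme of phospholipid remodelling and the 1 called gene of 17 tested for efflux and LXR targets, rose (0.86 ± 0.094, adjusted p = 0.0073). Of 19 genes of fatty acid transport and binding, 2 rose, *Fabp1* (3.94 ± 0.24, adjusted p = 0.000258), the liver-type fatty acid binding protein, and *Dbi* (1.12 ± 0.11, adjusted p = 0.00714), the acyl-CoA binding protein. *Fabp1* was 2.28, 2.68, 2.27 and 3.79 CPM with vehicle and 43.3, 31.3, 35.3 and 56.4 CPM with NR in these females, with no overlap. Of 13 other apolipoproteins, *Apoh* rose (2.16 ± 0.35, adjusted p = 0.0257) from levels of 0.137 to 0.302 CPM. Among 27 lipoprotein receptors tested, 2 rose. None of the genes of lipolysis (21 tested) or of the transcription factors (18 tested) was called, and no gene of these lists was called as lower. In Alport males the quasi-likelihood test called no gene of any list.

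**Figure D4:**
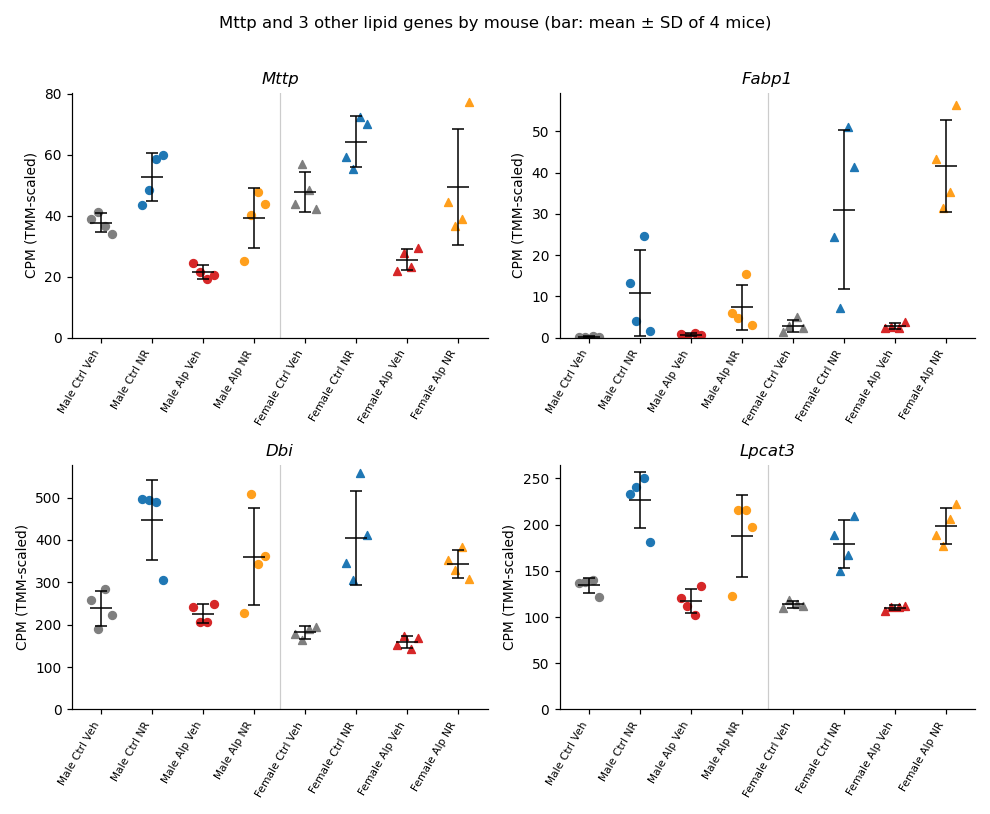
*Mttp*, *Fabp1*, *Dbi* and *Lpcat3* are plotted in CPM (vertical axis, from 0) for 8 groups of 4 mice with mean and SD (circles, males; triangles, females; blue and orange, NR). In Alport females, *Fabp1* is 2.27 to 3.79 CPM with vehicle and 31.3 to 56.4 CPM with NR, and *Dbi* is 143 to 174 CPM with vehicle and 307 to 384 CPM with NR.

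In control mice, NR changed 2 of 9 members in males, where *Mttp* rose and *Lpl* fell. In females 3 of 9 rose, namely *Apoc3*, *Cd36* and *Mttp*. In males 3.07% of all genes rose and 1.46% fell, and in females 3.91% rose and 2.27% fell. *Mttp* was called in both sexes. It was 38.9, 41.3, 36.8 and 33.9 CPM with vehicle and 43.6, 48.5, 58.7 and 59.8 CPM with NR in males (0.49 ± 0.11, adjusted p = 0.0374), with all NR-treated mice higher. In females it was 44.0, 56.9, 48.5 and 42.3 CPM and 59.3, 55.2, 72.4 and 70.3 CPM (0.42 ± 0.11, adjusted p = 0.0413), where vehicle-treated female 2 overlapped the NR group. Both adjusted p-values were near the threshold, and 1 fit of all 32 mice called neither the male nor the female rise (adjusted p = 0.126 and 0.4). The female call was also lost in 6 of the 8 fits that left out 1 mouse, all but those without vehicle-treated or NR-treated female 2 (adjusted p = 0.0647 to 0.111), and with the replicate block (adjusted p = 0.0836). The test of the interaction did not show that the NR effect on *Mttp* differed by genotype, with a difference of 0.36 ± 0.23, adjusted p = 0.681 (Alport minus control) in males and 0.52 ± 0.27, adjusted p = 0.56 in females. Without NR-treated Alport male 1 the male difference was 0.52, adjusted p = 0.0794, and without NR-treated Alport female 4 the female difference was 0.23, adjusted p = 0.765.

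*Apoc3* rose in control females, from 9.11, 10.7, 11.2 and 5.88 CPM to 22.2, 32.0, 26.1 and 22.6 CPM, a 2.77-fold rise with no overlap (1.47 ± 0.18, adjusted p = 0.00158). In males it was 3.60, 2.18, 5.56 and 2.95 CPM and 8.997, 6.21, 8.60 and 4.59 CPM, with 1 vehicle-treated male inside the NR range, and the change did not pass the test (1.01 ± 0.31, adjusted p = 0.0895). *Apoa4*, which lies in the same gene cluster as *Apoc3* and encodes an apolipoprotein of chylomicrons and HDL, was the 1 called gene among 10 other apolipoproteins in control females (1.34 ± 0.19, adjusted p = 0.00253), and was 14.9, 15.4, 16.2 and 7.70 CPM with vehicle and 33.3, 40.5, 28.3 and 36.2 CPM with NR. *Cd36* rose in control females, from 94.5, 76.7, 69.9 and 66.3 CPM to 136, 94.97, 128 and 117 CPM (0.63 ± 0.12, adjusted p = 0.0135), and the lowest NR-treated female lay just above the highest vehicle-treated female. With 1 fit of all 32 mice none of the 3 female calls was made.

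In control males the direction for *Cd36* was the opposite. It was 431, 521, 476 and 627 CPM with vehicle and 143, 396, 115 and 365 CPM with NR, with every NR-treated male lower (−1.01 ± 0.35, adjusted p = 0.125), which did not pass the test. *Lpl* fell from 598, 613, 359 and 608 CPM to 272, 394, 245 and 310.2 CPM in males (−0.83 ± 0.19, adjusted p = 0.0405), with vehicle-treated male 3 inside the NR range, and was 201, 196, 204 and 247 CPM in NR-treated females, where the groups overlapped. *Apoe* was 245, 208, 389.6 and 264 CPM with vehicle and 1439, 279, 1160.3 and 416 CPM with NR in males, high in mice 1 and 3 and near the vehicle range in mice 2 and 4 (1.59 ± 0.47, adjusted p = 0.08). *Scarb1*, at 16.96, 15.9, 17.01 and 15.03 CPM and 24.0, 17.6, 21.0 and 17.4 CPM, had all NR-treated males higher but was not called (0.31 ± 0.13, adjusted p = 0.171). The groups did not overlap for 3 of 9 members in males and 2 of 9 in females, against 13.3% and 14.4% of all genes. *Abca1*, *Apom* and *Apob* overlapped between treatments in both sexes, with 32.8 to 50.3, 55.6 to 89.4 and 181 to 362 CPM in NR-treated males and 38.7 to 57.3, 57.6 to 71.7 and 376 to 424 CPM in NR-treated females.

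Male-biased genes of the kidney varied with these members in NR-treated control males. Kidney androgen-regulated protein (*Kap*), chosen after the values of the members were seen, was 10973 to 13295 CPM in vehicle-treated control males, 2081, 9811, 1425 and 5727 CPM in NR-treated ones and 6.97 to 1649 CPM in females. In control females, where *Cd36* rose with NR, *Kap* was 1649, 1003, 239 and 744 CPM with vehicle and 115, 292, 450 and 563 CPM with NR. Mice 1 and 3, with the lowest *Kap*, also had the lowest *Cd36* (143 and 115 CPM), the lowest *Lpl* (272 and 245 CPM) and the highest *Apoe* (1439 and 1160.3 CPM) of the group. They also had the lowest *Col4a3* of the group (59.0 and 74.9 CPM). The transporter *Slco1a1*, likewise chosen afterwards, was 3.72, 120.0, 4.51 and 9.18 CPM in this group, 198 to 444 CPM in vehicle-treated control males and at most 1.59 CPM in females. NR-treated control male 4, with *Slco1a1* at 9.18 CPM, had *Cd36* of 365 CPM and *Apoe* of 416 CPM, unlike males 1 and 3. NR-treated Alport males 1 and 3 also had the lowest *Kap* (902 and 153 CPM), the lowest *Cd36* and the highest *Apoe* of their group. Endothelial markers also moved in control males, where 11 of 16 rose, and their sum was 583 to 647 CPM with vehicle and 859 to 1139 CPM with NR. Of the other marker lists in control males, 5 rose and 0 fell of 20 tested for macrophages, 6 rose and 0 fell of 14 tested for stroma, 1 rose and 2 fell of 20 tested for the proximal tubule, 1 rose and 1 fell of 16 tested for the distal nephron and 2 rose and 0 fell of 7 tested for hepatocytes, and no podocyte or adipocyte marker was called. In control females at most 3 markers of a list rose and at most 1 fell. The part of any of these in the results was not tested. Without vehicle-treated male 1, 2 or 4, 0 members were called in males, with log2 fold changes of 0.44 to 0.53 for *Mttp* and of −0.77 in each of these fits for *Lpl*. Without NR-treated male 1, *Mttp* was the 1 member called in control males (0.56, adjusted p = 0.0357), and without NR-treated male 3 no member was (0.43, adjusted p = 0.0968 for *Mttp* and −0.74, adjusted p = 0.105 for *Lpl*).

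**Figure D5:**
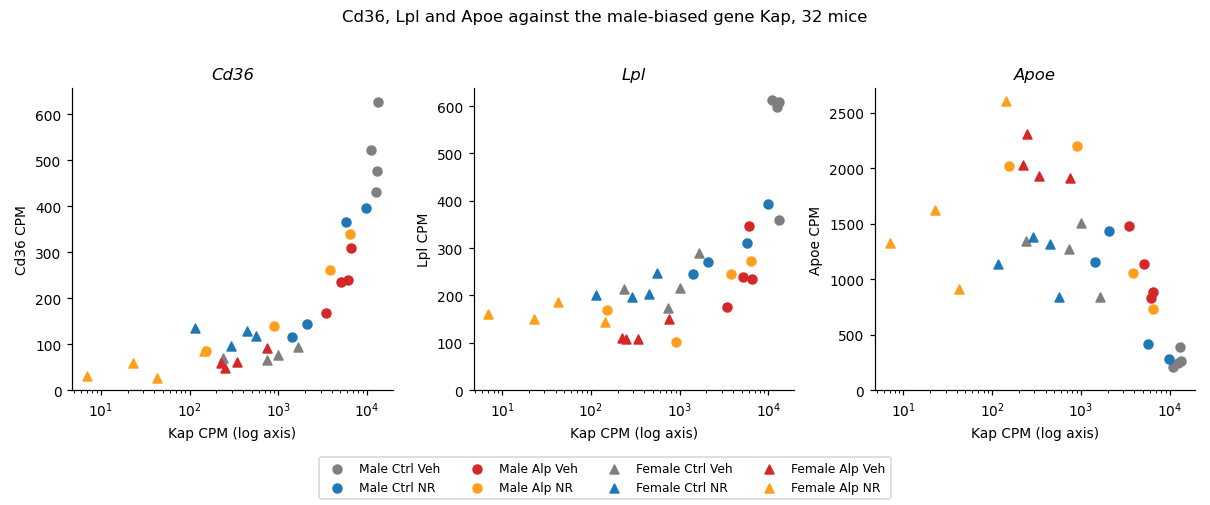
*Cd36*, *Lpl* and *Apoe* (vertical axes, CPM) are plotted against the male-biased gene *Kap* (CPM, log axis) with 1 point per mouse (circles, males; triangles, females; colours as for the other plots of mice). Vehicle-treated control males sit at 10973 to 13295 CPM of *Kap* with high *Cd36* and low *Apoe*, and NR-treated control males 1 and 3 sit at 2081 and 1425 CPM with *Cd36* of 143 and 115.

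Beside the members, *Srebf2*, a transcription factor of sterol synthesis, and *Lpcat3* rose with NR in control mice of both sexes. The log2 fold changes of *Srebf2* in males and females were 0.49 ± 0.073, adjusted p = 0.0102 and 0.25 ± 0.058, adjusted p = 0.0287. For efflux and LXR targets, 3 rose and 0 fell of 16 tested in males and 4 rose and 0 fell of 16 tested in females, with *Lpcat3* at 0.77 ± 0.12, adjusted p = 0.0102 and 0.65 ± 0.091, adjusted p = 0.00263. For fatty acid transport and binding, 5 rose and 0 fell of 17 tested in males, with *Plin5*, a lipid droplet protein (0.76 ± 0.13, adjusted p = 0.0178), and *Fabp1* (5.43 ± 0.91, adjusted p = 0.0152), and 4 rose and 0 fell of 18 tested in females, with *Dbi* (1.16 ± 0.16, adjusted p = 0.00245) and *Plin2* (0.49 ± 0.073, adjusted p = 0.00322). *Fabp1* in control males was 0.106, 0.171, 0.492 and 0.238 CPM with vehicle and 13.2, 4.12, 24.7 and 1.74 CPM with NR, so its large fold rests on low vehicle levels.

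In lipolysis and remodelling, 3 rose and 0 fell of 19 tested in males, with *Pltp* (0.94 ± 0.17, adjusted p = 0.0204) and *Tm6sf2* (1.06 ± 0.22, adjusted p = 0.0297), which takes part in the lipidation of lipoproteins, and 3 rose and 0 fell of 20 tested in females, with *Angptl4*, an inhibitor of LPL (1.08 ± 0.28, adjusted p = 0.0419). No other apolipoprotein of 10 tested was called in males. Among lipoprotein receptors, 5 rose and 0 fell of 26 tested in males, and 2 rose and 2 fell of 26 tested in females. Among the transcription factors, 2 rose and 1 fell of 18 tested in males and 1 rose and 3 fell of 18 tested in females, with *Mlxipl* (ChREBP), which responds to sugar, lower in males (−0.73 ± 0.13, adjusted p = 0.019) and females (−0.66 ± 0.085, adjusted p = 0.00226) and *Ppara* lower in females (−0.45 ± 0.082, adjusted p = 0.0121).

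NR-treated Alport mice were also set against vehicle-treated controls, and each of these groups also enters a comparison above. In males 6 of 9 members differed, 3 up and 3 down, against 14.4% of all genes up and 6.81% down. *Apoe* (2.49 ± 0.38, adjusted p = 0.00435), *Abca1* (1.08 ± 0.19, adjusted p = 0.00669) and *Scarb1* (0.70 ± 0.20, adjusted p = 0.0371) were higher, and *Apom* (−1.45 ± 0.40, adjusted p = 0.0322), *Lpl* (−1.41 ± 0.31, adjusted p = 0.0148) and *Cd36* (−1.26 ± 0.38, adjusted p = 0.0423) lower. *Mttp* was not called (0.12 ± 0.18, adjusted p = 0.68), and NR-treated Alport males at 25.3, 40.2, 47.8 and 44.0 CPM spanned the vehicle-treated controls at 33.9 to 41.3 CPM, with a value of 0.26, adjusted p = 0.119 without male 1. The 6 calls were 3 (*Abca1*, *Apoe* and *Lpl*) without vehicle-treated control male 1, 2 or 4 and 4 without NR-treated Alport male 1. In females 4 of 9 differed, 1 up and 3 down, against 11.9% and 11.6% of all genes. *Scarb1* was higher (0.62 ± 0.10, adjusted p = 0.00298), and *Apom* (−0.80 ± 0.20, adjusted p = 0.016), *Apob* (−0.61 ± 0.19, adjusted p = 0.0425) and *Lpl* (−0.47 ± 0.15, adjusted p = 0.044) were lower. The 4 calls were 2 without vehicle-treated control female 1 or 2 or NR-treated Alport female 3, 2 (*Apom* and *Scarb1*) with RLE size factors, and 6 without NR-treated Alport female 4. *Abca1* was not called in females (0.96 ± 0.40, adjusted p = 0.11) but was without female 4 (1.28, adjusted p = 0.00213) and with 1 fit of all 32 mice (adjusted p = 0.0162). That fit did not call *Apom* (adjusted p = 0.0533) or *Lpl* (adjusted p = 0.14) in females. The replicate block did not call *Lpl* either (adjusted p = 0.122). NR-treated Alport females held 36.6 to 77.4 CPM of *Mttp* and the controls 42.3 to 56.9 CPM, which overlapped.

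In vehicle-treated controls 8 of 9 members differed between the sexes, 5 higher and 3 lower in females, against 15.9% of all genes higher and 15.8% lower. *Cd36* was 66.3 to 94.5 CPM in females and 431 to 627 CPM in males, a 6.58-fold difference (−2.72 ± 0.13, adjusted p = 7.54e-08), and *Lpl* was 2.40-fold lower in females (−1.26 ± 0.18, adjusted p = 0.000325). *Apoe* was 4.57-fold higher in females (2.19 ± 0.21, adjusted p = 1.83e-05) and *Apoc3* 2.64-fold higher (1.40 ± 0.27, adjusted p = 0.00243). Markers also differed, with 10 of 14 stromal, 9 of 12 podocyte, 8 of 16 endothelial and 5 of 20 macrophage markers higher and 0 lower in females, 8 higher and 1 lower of 16 for the distal nephron, 5 higher and 6 lower of 20 for the proximal tubule, 2 higher and 2 lower of 8 for hepatocytes and 1 higher of 4 for adipocytes, and their part was not tested. The other members were closer, namely *Apob* (0.54 ± 0.17, adjusted p = 0.0298), *Scarb1* (0.45 ± 0.087, adjusted p = 0.00252), *Mttp* (0.37 ± 0.099, adjusted p = 0.0146) and *Apom* (−0.33 ± 0.083, adjusted p = 0.0107), and *Abca1* was not called (0.25 ± 0.16, adjusted p = 0.263). With 1 fit of all 32 mice 4 members were called, *Apoc3*, *Apoe*, *Cd36* and *Lpl*. The call for *Apob* was also lost with DESeq2 (adjusted p = 0.061) and without control female 2 (0.41, adjusted p = 0.091) or control male 1 (0.40, adjusted p = 0.0686), 2 (0.50, adjusted p = 0.0719) or 4 (0.56, adjusted p = 0.056). In vehicle-treated Alport mice 3 of 9 were called, 1 higher and 2 lower in females, against 1.81% and 2.03% of all genes. These were *Apoe* (0.91 ± 0.18, adjusted p = 0.0251), *Cd36* (−1.86 ± 0.22, adjusted p = 0.00144) and *Lpl* (−1.06 ± 0.19, adjusted p = 0.0154), while *Apoc3* missed the threshold (1.46 ± 0.37, adjusted p = 0.0562). Without vehicle-treated Alport female 4, *Cd36* was the 1 member called, and the call for *Apoe* was also lost without female 3 or male 1, 2 or 4 and that for *Lpl* without female 3. With 1 fit of all 32 mice *Apoe* was not called either (adjusted p = 0.267), and DESeq2 called *Apoc3* (adjusted p = 0.00188).

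Whether the genotype difference itself depended on sex was tested on the 16 vehicle-treated mice. The quasi-likelihood test and limma-voom called no member, and the quasi-likelihood test called 0.532% of all genes. At an unadjusted p under 0.05 there were 2 members, and 1940 of all 16152 genes tested. *Apoe* came nearest, with a female minus male difference of −1.33 ± 0.30, adjusted p = 0.0603, and DESeq2 called it (adjusted p = 0.00308), over a range of 0.00308 to 0.808 among all alternatives. *Cd36*, which fell in Alport males and was not called in females, had a difference of 0.81 ± 0.27, adjusted p = 0.221. Whether the NR effect differed by genotype was tested in each sex, and no member was called, against 0.0% of all genes in males and 0.0% in females, with 0 and 2 members at an unadjusted p under 0.05 and 0 members by DESeq2 or limma-voom. Over all genes tested, 1398 of 15800 in males and 1521 of 16064 in females had an unadjusted p under 0.05. DESeq2 called 2 higher and 17 lower in males and 11 higher and 18 lower in females. In females *Cd36*, which rose with NR in controls, had an Alport minus control difference of −1.02 ± 0.39, adjusted p = 0.461. The NR effect in Alport mice was likewise called different between the sexes for no member and for 0.0% of all genes, with no member at an unadjusted p under 0.05, none by DESeq2 or limma-voom, 363 genes at an unadjusted p under 0.05 and 1 gene by DESeq2. In controls, a comparison added after the values had been seen, 0.683% of all genes and no member were called, and the female minus male difference of the NR effect was 1.65 ± 0.41, adjusted p = 0.071 for *Cd36*, −1.67 ± 0.54, adjusted p = 0.141 for *Apoe* and 0.76 ± 0.25, adjusted p = 0.145 for *Lpl*. In this test 3 members had an unadjusted p under 0.05, as did 2458 of all 15379 genes tested. DESeq2 called *Cd36* (adjusted p = 0.0173), as did the fits without NR-treated male 2 (adjusted p = 0.0173) or 4 (adjusted p = 0.0217), and 1 fit of all 32 mice did not (adjusted p = 0.322). Without NR-treated male 1 or 3 the difference for *Cd36* was 1.45, adjusted p = 0.121 and 1.40, adjusted p = 0.105.

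Ordered by mean level over the 8 groups, most neighbours overlapped. *Apoc3* was highest in NR-treated control females (25.7 ± 4.51 CPM, mean ± SD, n = 4), which lay above the next group, and lowest in vehicle-treated control males (3.57 ± 1.44). *Apoe* ran from 276 ± 78.9 CPM in vehicle-treated control males to 2046 ± 181 in vehicle-treated Alport females, with overlap at every step. *Apom* was in 2 blocks, the 4 control groups at 61.3 ± 5.37 to 78.1 ± 6.44 CPM and the 4 Alport groups at 25.3 ± 8.74 to 34.9 ± 10.9 CPM, and all 16 control mice lay above all 16 Alport mice. *Abca1* was in the same 2 blocks in reverse, except for NR-treated Alport female 4. *Mttp* ran from 21.5 ± 2.33 CPM in vehicle-treated Alport males to 64.3 ± 8.32 in NR-treated control females, and the vehicle-treated Alport groups of both sexes came last, below vehicle-treated control males without overlap. *Cd36* followed sex, with the 4 male groups (207 ± 115 to 514 ± 84.1 CPM) ahead, by their means, of the 4 female groups (50.2 ± 26.8 to 119 ± 17.6 CPM), and *Lpl* began with vehicle-treated control males (545 ± 124 CPM) and ended with vehicle-treated Alport females (119 ± 21.4 CPM). *Scarb1* followed genotype first, from 16.2 ± 0.949 CPM in vehicle-treated control males to 33.9 ± 5.44 in vehicle-treated Alport females, and *Apob* ran from 181 ± 47.0 CPM in vehicle-treated Alport males to 401 ± 25.7 in NR-treated control females.

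Among themselves, some members moved in opposition over the 32 mice, which share genotype, sex and treatment within groups. Pearson's r of log2 CPM was −0.92 for *Apoe* and *Lpl* (−0.75 for deviations from the group means), 0.78 for *Lpl* and *Cd36* (0.47) and −0.77 for *Mttp* and *Abca1* (−0.66). For *Abca1* and *Scarb1*, r was 0.63 over all mice and −0.027 within groups. Of the 14054 genes with a mean of at least 1 CPM, those with the highest r to each member over the 32 mice are given with that r and the r of the deviations from the group means. For the apolipoproteins these were *Apoa4* (0.89, 0.88), *Apoc1* (0.81, 0.75) and *Them6* (0.80, 0.76) for *Apoc3*, *Wfdc2* (0.94, 0.90), *Ormdl3* (0.90, 0.75) and *Capg* (0.90, 0.73) for *Apoe*, *Id4* (0.84, 0.70), *Gcm1* (0.84, 0.70) and *Slc22a13* (0.84, 0.74) for *Apob* and *Gcat* (0.95, 0.94), *Gabarapl1* (0.94, 0.84) and *Rnf152* (0.94, 0.80) for *Apom*. *Apoa4* and *Apoc1* are themselves apolipoproteins. For assembly and export they were *Abcd3* (0.92, 0.85), *Acaa1b* (0.90, 0.70) and *Atp6ap2* (0.90, 0.67) for *Mttp* and *Cldn1* (0.94, 0.88), *D630003M21Rik* (0.94, 0.80) and *Cxcl16* (0.94, 0.82) for *Abca1*. *Abcd3* and *Acaa1b* are peroxisomal genes, of fatty acid import and oxidation, and *Cxcl16* is a scavenger receptor. For the uptake genes they were *Smpdl3a* (0.94, 0.73), *Znrf2* (0.93, 0.73) and *Snx27* (0.93, 0.78) for *Lpl*, *Cyp2a4* (0.97, 0.92), *Lap3* (0.96, 0.88) and *Ldhd* (0.95, 0.90) for *Cd36* and *Cd9* (0.97, 0.88) and *Iqgap1* (0.94, 0.81) for *Scarb1*.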

How the data were processed

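Kidney cortex libraries (poly(A) RNA) of 32 mice, 4 in each of 8 groups, were analysed. The authors processed the reads with BioJupies and deposited raw counts by gene symbol, used here unchanged, and a table of log10(CPM + 1), which the authors made from the same counts (largest difference 8.88e-16) and which was not used further. The aligner, its version and the annotation are not given in the sources used here. Total counts were 16621944 to 27778797 per library. The 48 pairs of mice within groups differed beyond counting noise (chi-square per degree of freedom at least 7.96), and the number of mice limits the precision. Each comparison was fitted on its own groups with edgeR 4.0.16 in R 4.3.3 (quasi-likelihood test, filterByExpr with a minimum count of 10, TMM), with Benjamini-Hochberg adjustment across every tested gene and a threshold of 0.05. The SE is the log2 fold change divided by the root of F. The test was checked on simulated counts. Alternatives were DESeq2 1.42.0, limma-voom (limma 3.58.1), 1 fit of all 32 mice, RLE size factors, no low-count filter, a replicate block, leaving out each mouse and, for sex by genotype, a limit of 2-fold. The 9 members and all gene lists were chosen with earlier results of these data known. Named for each list, comparison and direction were up to 2 called genes with the smallest p (1 for cell type lists), and for each member the 3 genes with the highest r of log2 CPM (prior count 4); genes named as chosen after values were seen, and genes shown again in another comparison, fall outside this rule. Some genes that these rules name are not reported here. The paper states that treatment groups were balanced across litters. The litter of each mouse, and whether mice of a group came from separate litters, is not given in the labels, so no fit holds a litter term.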

Additional observations from a re-analysis of the deposited data

Results flagged for a closer look

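In the 72 sets of 4 mice (9 members in 8 groups), 5 held a mouse far from the other mice of its group, where chance gives about 5% of sets. These were *Apob* in vehicle-treated Alport female 1 (174 CPM, the others 253 to 263), *Abca1* in NR-treated control female 2 (57.3 CPM, the others 38.7 to 41.8), and *Lpl* in 3 groups. *Lpl* was 359 CPM in vehicle-treated control male 3 (the others 598 to 613), 247 CPM in NR-treated control female 4 and 151 CPM in vehicle-treated Alport female 2. For *Cd36* in control mice, every NR-treated male was below every vehicle-treated male and every NR-treated female above every vehicle-treated female. Such groups did not overlap for 13.3% of all genes in males and 14.4% in females. The male fall of *Cd36* was not called (adjusted p = 0.125), and the female rise was (adjusted p = 0.0135). The female minus male difference in log2 fold change was 1.65, and the test of this difference did not pass the threshold (adjusted p = 0.071).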

How the results depend on the processing

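The 7 Alport calls in each sex were 6 to 8 of 9 members under every alternative, and *Mttp* was called over both sexes of Alport mice under each. For NR in Alport mice, 0 members in each sex became 1 (*Mttp*) with DESeq2 and with 1 fit of all 32 mice, and 0 to 2 in males without 1 mouse (2 without NR-treated male 1). For NR in control males, 2 calls became 4 with DESeq2 and 1 with the replicate block, and 0 to 4 without 1 mouse: 0 without vehicle-treated males 1, 2 or 4 or NR-treated male 3, 1 without vehicle-treated male 3 or NR-treated male 1, and 4 without NR-treated male 4. In control females 3 calls became 0 with 1 fit of all 32 mice, and *Mttp* was lost with the replicate block and in 6 of 8 fits without 1 mouse. For NR-treated Alport against control mice, 6 male calls became 3 to 7 without 1 mouse (3 without vehicle-treated control males 1, 2 or 4), and 4 female calls became 2 with RLE size factors and 2 to 6 without 1 mouse (2 without vehicle-treated control females 1 or 2 or NR-treated Alport female 3). In females, 1 fit of all 32 mice lost *Apom* and *Lpl* and gained *Abca1*, and the replicate block lost *Lpl*. Between the sexes, 8 control calls became 4 with 1 fit of all 32 mice (*Apob* was lost with DESeq2 as well), and 3 Alport calls became 1 to 3 without 1 mouse (1 without vehicle-treated female 4). In Alport mice *Apoe* was also lost with 1 fit of all 32 mice, and *Apoc3* was gained with DESeq2 and with no low-count filter. For sex by genotype, 0 calls became 1 (*Apoe*) with DESeq2, with no low-count filter and with the replicate block, and 0 to 1 without 1 mouse (1 without vehicle-treated control male 3 or female 1). The replicate block paired mice by number only, since 6 of 24 same-numbered pairs had r over 0.1 (−0.24 to 0.39) and 14 of 48 mice correlated best with their own number. Of the member fold changes printed in the report, which leave out several near 0, none changed direction among 408 under other settings (19 calls lost, 16 gained) or 624 without 1 mouse (53 lost, 16 gained). The cause of these changes was not tested, and each fit that leaves out 1 mouse also rests on fewer mice.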
